A study of Homo sapiens with 12 samples.

Results

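A set of 10 genes of the negative feedback on extracellular signal-regulated kinase (ERK) signalling was described across pools of cancer cells that had or had not evolved resistance to hydroxychloroquine (HCQ). They were the rows named DUSP1, DUSP2, DUSP4, DUSP5, DUSP6, DUSP8, SPRY2, SPRY4, SPRED1 and SPRED2, all 10 of which were found among the 28278 genes of the count table. The set was proposed after DUSP5 and SPRY4 had been seen to change with HCQ evolution in these libraries, so the 10 genes were chosen on that contrast. Their changes with HCQ evolution, in either line and between the lines, are given as a description with no p-value.

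Growth factor signals pass through RAS, RAF and MEK to ERK, a kinase that turns on genes in the nucleus. Among these genes are several that switch ERK off again. Dual specificity phosphatases (DUSP) remove the activating phosphates from ERK and related kinases, while Sprouty (SPRY) and SPRED proteins act further upstream, around the receptors, RAS and RAF. Their transcripts therefore often serve as a readout of ERK output, although in tumour cells with mutated pathway genes their levels can be high without outside growth factor.

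The cells were labelled OVCAR3, a human ovarian cancer line, and CCL218, a human colorectal cancer line that the study describes as derived from HT29. HCQ-evolved cells (passage 15 in the labels) had survived 15 pulses of HCQ, a drug that accumulates in lysosomes and disturbs autophagy, and RNA was taken after a week without drug. Control cells (passage 19 in the labels) came from a paired plate passaged without HCQ, which the study's abstract describes as vehicle control. Each group consisted of 3 pools of wells, grouped by position on a single plate, giving 12 libraries of polyadenylated RNA. The letters L, M and R in the labels are read here as left, middle and right, which the sources do not spell out. The 3 pools of a group are parts of one plate, so spread between them does not include repeats of the evolution, and passage number and treatment cannot be told apart.

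Libraries held 31147822 to 59965861 counts, and 16569 to 18992 genes had at least 1 count. Within each library, the deviation from the mean of its line correlated with transcript length across genes, lowest in the L control pool of CCL218 (Spearman's rho -0.49) and highest in the R HCQ-evolved pool of OVCAR3 (0.55, both as a description), and rho differed in sign within all 4 groups. The listed markers did not separate the control pools of the label OVCAR3 from those of CCL218 by presence. Of 10 ovarian markers, SOX17, EMX2 and ESR1 were at 3 counts or fewer in all 12 libraries. In every OVCAR3 control pool 5 were over 1 CPM (counts scaled to a fixed library total), as were 5 in every CCL218 control pool. Of 10 colorectal markers, 7 were over 1 CPM in every control pool of each label. PAX8 (mean 12 against 8.32 CPM) and MUC16 (22.5 against 8.66 CPM) had higher means in OVCAR3 than in CCL218 control pools, with ranges that overlapped. MSLN was lower in OVCAR3 (14.3 against 63.7 CPM). Colorectal markers such as VIL1 (237, 290.4 and 197 CPM in L, M and R) and LGALS4 (mean 730.5 CPM) were high in the control pools labelled OVCAR3. Over the 10 colorectal markers, the summed level was 951 to 1164 CPM in OVCAR3 control, 250.5 to 671 in OVCAR3 HCQ-evolved, 1163 to 1674 in CCL218 control and 1125 to 1187 in CCL218 HCQ-evolved pools, with KRT20 near 0 throughout. LGALS4 carried most of this sum. In CCL218, means of CDH17 (3.85 and 52.6 CPM in control and HCQ-evolved pools), GPA33 (4.77 and 34.7 CPM) and CDX2 (23.3 and 67.8 CPM) differed several-fold within it. The 10 ovarian markers summed to 45.9 to 72.6, 45.0 to 68.3, 66.5 to 129 and 107 to 147 CPM in the same order. Fibroblast markers summed to at most 3.35 CPM, and the leukocyte markers (1322 to 2779 CPM in OVCAR3 and 1711 to 2291 CPM in CCL218) were carried by LYZ, with PTPRC at a mean of at most 0.0396 CPM. WT1 was at a mean of 0.296 CPM in OVCAR3 control and 0.267 CPM in CCL218 control pools. Over 12613 genes, the log2 difference of control means between the 2 labels had an SD of 0.548. The SD of HCQ-evolved minus control was 0.601 in OVCAR3 and 0.535 in CCL218, so the labels lay about as far apart as evolved and control pools. OVCAR3 and CCL218 below are the names of the labels, and a difference between them is not read as ovarian against colorectal. The part of the marker levels in any result was not tested.

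Promoter windows, each set at the RefSeq start site of a gene, are shown because the members are transcripts whose levels moved together or apart between lines. RefSeq promoters (GRCh38.p14) were matched for 8 of the 10 genes, without DUSP4 and DUSP5. The 250 bases before the start site are given for SPRY4, one of the genes for which the set was proposed, and for DUSP1 and DUSP8, the members that hold the cyclic AMP response element (CRE, letters TGACGTCA), which is in capitals. All 3 genes lie on the minus strand, and the sequences read 5′ to 3′ on that strand. The RefSeq start of SPRY4 lies inside the longer GENCODE gene span given below, so its window is within that span.
SPRY4, chr5:142324248-142324497, minus strand: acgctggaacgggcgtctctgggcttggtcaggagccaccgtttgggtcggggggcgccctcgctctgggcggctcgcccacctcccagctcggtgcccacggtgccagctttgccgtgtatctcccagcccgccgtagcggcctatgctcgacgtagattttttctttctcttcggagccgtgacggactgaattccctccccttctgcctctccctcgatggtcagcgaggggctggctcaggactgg
DUSP1, chr5:172771196-172771445, minus strand: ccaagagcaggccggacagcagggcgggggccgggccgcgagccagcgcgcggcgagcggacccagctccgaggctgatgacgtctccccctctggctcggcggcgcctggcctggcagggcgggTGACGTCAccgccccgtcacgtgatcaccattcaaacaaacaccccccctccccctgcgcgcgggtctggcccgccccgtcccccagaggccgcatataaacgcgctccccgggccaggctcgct
DUSP8, chr11:1572272-1572521, minus strand: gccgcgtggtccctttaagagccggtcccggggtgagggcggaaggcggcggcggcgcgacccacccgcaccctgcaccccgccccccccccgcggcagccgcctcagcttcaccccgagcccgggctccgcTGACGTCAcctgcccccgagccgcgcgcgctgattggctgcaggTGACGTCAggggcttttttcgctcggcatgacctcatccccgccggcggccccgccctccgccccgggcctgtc
Both strands were searched, in the first window listed for each member, while the shares count every promoter listed. The CRE was present in 1.646% of the 35116 promoters in the table, once in DUSP1 (bases 125 to 118 before the start) and at 2 places in DUSP8 (118 to 111 and 74 to 67). A GC box (GGGCGG) was found in 6 of the 8 members and in 42.64% of all promoters. An AP-1 site (TGANTCA, 6.573% of promoters), an ETS core (CCGGAAG, 8.517%) and the CArG box (1.159%) were found in none of the 8. No CRE overlapped a GC box. These letters describe the windows and show no binding.

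Levels were compared per length, as CPM scaled by the TMM method of edgeR and divided by the kilobases of the MANE Select transcript. In OVCAR3 control pools the mean was highest for DUSP1 (104.6 CPM per kb), followed by DUSP6 (60.1), SPRED2 (23.4), SPRED1 (22.3), SPRY2 (18.8), DUSP2 (18.2), DUSP5 (14.7), SPRY4 (12.3), DUSP4 (7.10) and DUSP8 (0.750). The ranges of the 3 pools overlapped between DUSP1 and DUSP6 and for each neighbour from SPRED2 down to DUSP2, but not below that. In HCQ-evolved OVCAR3, DUSP5 stood ninth at 2.23 CPM per kb, the place it also held in CCL218 control (3.16) and HCQ-evolved (3.25) pools. DUSP1 and DUSP8 were the highest and the lowest of the 10 in all 4 groups. DUSP8 had as few as 40 counts in a library, and every other member had at least 233.

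**Figure D1:**
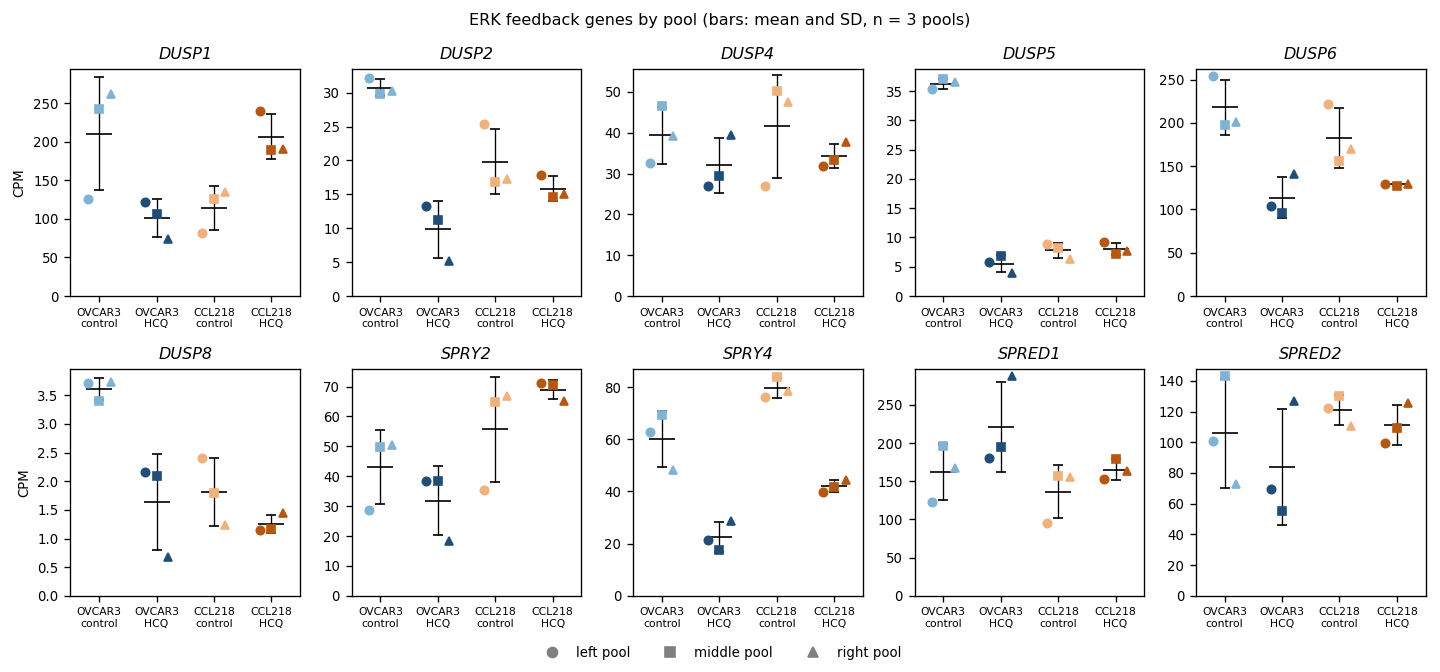
CPM (TMM-scaled, linear axes from 0) of the 10 genes in each pool of the 4 groups, with circles, squares and triangles for left, middle and right pools and black bars for mean and SD (n = 3). DUSP5 is at 35.4 to 37.0 CPM in OVCAR3 control pools and between 3.90 and 9.25 CPM in the other 9.

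Among the phosphatases that act mainly on ERK, DUSP5 is a nuclear enzyme (chromosome 10, 110497907 to 110511533, plus strand, hg38 with GENCODE 44). It was at 35.4, 37.0 and 36.5 CPM in the L, M and R control pools of OVCAR3 and at 5.87, 6.80 and 3.90 CPM in the HCQ-evolved pools. In CCL218, DUSP5 was at 8.81, 8.28 and 6.41 CPM in control and 9.25, 7.13 and 7.76 CPM in HCQ-evolved pools. The OVCAR3 control pools thus stood alone at a high level and close to each other, and the CCL218 groups overlapped. The log2 fold change of DUSP5, HCQ-evolved over control, was -2.70 (SE 0.24) in OVCAR3 and 0.04 (SE 0.18) in CCL218, and the difference between the lines was 2.76 (SE 0.30). Without OVCAR3 control L or control R the OVCAR3 change no longer passed the threshold, although its size stayed between -2.87 and -2.51 with any pool left out. Over all genes, 0 were called higher and 3 lower of 12018 without control L, and 1 and 3 of 12042 without control R. With all 6 pools, 79 and 148 of 12204 were.

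DUSP6, the cytoplasmic ERK phosphatase (chromosome 12, 89347235 to 89352501, minus strand), was at 254, 198 and 201 CPM in OVCAR3 control pools and at 104, 95.9 and 141 CPM after evolution. In CCL218 the control pools held 221, 156 and 169.7 CPM of DUSP6, and the HCQ-evolved pools held 129.6, 128 and 129 CPM. In neither line did the groups overlap, with evolved pools the lower ones. The log2 fold changes of DUSP6 were -0.91 (SE 0.21) in OVCAR3 and -0.50 (SE 0.16) in CCL218, neither past the threshold. DUSP6 passed without HCQ-evolved R in OVCAR3 (-1.11) and without control L in CCL218 (-0.35). Over all genes, 233 were then called higher and 324 lower of 12113 in OVCAR3, and 1646 and 1401 of 12102 in CCL218. These libraries had the strongest correlation with transcript length in each line, and its part in the calls was not tested.

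The remaining phosphatases act, to differing degrees, on ERK and on the stress kinases JNK and p38. DUSP1, an immediate early gene (chromosome 5, 172768096 to 172771195, minus strand), was at 126, 243 and 262 CPM in OVCAR3 control and 122, 106 and 74.3 CPM in OVCAR3 HCQ-evolved pools. In CCL218 the order was turned, with 81.8, 126 and 135 CPM of DUSP1 in control and 240.3, 189 and 190.1 CPM in HCQ-evolved pools. Neither pair of groups overlapped, though in OVCAR3 the left pools of both groups were close to each other. DUSP1 had log2 fold changes of -1.05 (SE 0.32) and 0.85 (SE 0.21), and the difference between the lines was 1.91 (SE 0.41). None of these 3 passed the threshold. Pools of the same position of CCL218 deviated together, and with plate position as a block the CCL218 change of DUSP1 was 0.87.

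DUSP2, a nuclear phosphatase best known from immune cells (chromosome 2, 96143169 to 96145440, minus strand), was at 32.2, 29.8 and 30.2 CPM in OVCAR3 control and 13.2, 11.2 and 5.13 CPM in OVCAR3 HCQ-evolved pools, which did not overlap. In CCL218, DUSP2 was at 25.3, 16.9 and 17.3 CPM before and 17.9, 14.6 and 15.0 CPM after evolution, with overlap. Its log2 fold changes were -1.63 (SE 0.33) and -0.33 (SE 0.20). DUSP8 (chromosome 11, 1554051 to 1572271, minus strand), the member with the fewest counts, ranged from 3.39 to 3.74 CPM in OVCAR3 control, from 0.670 to 2.17 CPM in OVCAR3 HCQ-evolved, from 1.24 to 2.41 CPM in CCL218 control and from 1.15 to 1.44 CPM in CCL218 HCQ-evolved pools, with log2 fold changes of -1.13 (SE 0.43) and -0.53 (SE 0.29). In both genes the OVCAR3 HCQ-evolved R pool was the lowest of the 12. DUSP4, a nuclear phosphatase (chromosome 8, 29333064 to 29350684, minus strand), overlapped between groups in both lines, at 26.9 to 46.6 CPM in OVCAR3 and 27 to 50.1 CPM in CCL218, and its log2 fold change was -0.28 in each.

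Of the Sprouty genes, SPRY4 (chromosome 5, 142310427 to 142326455, minus strand) was at 62.9, 69.4 and 48.2 CPM in OVCAR3 control pools and at 21.5, 17.4 and 28.5 CPM in OVCAR3 HCQ-evolved pools. CCL218 pools held 76.4, 83.8 and 78.4 CPM of SPRY4 before and 39.8, 41.9 and 44.3 CPM after evolution. SPRY4 was lower in every HCQ-evolved pool than in any control pool of the same line, with log2 fold changes of -1.40 (SE 0.26) and -0.93 (SE 0.12) and a difference between the lines of 0.50 (SE 0.27). As SPRY4 and DUSP5 were picked for a change in this contrast, the calls counted for them are part of the description and no evidence of a change. The OVCAR3 call of SPRY4 was lost on leaving out any pool other than HCQ-evolved R (changes of -1.62 to -1.23), and the CCL218 call was lost without HCQ-evolved L, M or R (-0.97 to -0.88 over the 6 omissions). Calls over all genes also fell in these fits, from 79 higher and 148 lower to at most 9 and 40 in OVCAR3. In CCL218 they fell from 468 and 323 to at most 108 and 39. An antisense gene, SPRY4-AS1, has a row of its own in the table, and as the strand setting of the counting was not given, reads that the pair shares cannot be told apart.

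SPRY2, the other Sprouty member (chromosome 13, 80335976 to 80341126, minus strand), overlapped between groups in OVCAR3, at 28.6, 49.9 and 50.3 CPM in control and 38.4, 38.4 and 18.4 CPM in HCQ-evolved pools. In CCL218, SPRY2 was at 35.3, 64.8 and 66.9 CPM before and 71.0, 70.5 and 65.3 CPM after evolution, with the control L pool well below the others. The log2 fold changes of SPRY2 were -0.43 and 0.31. SPRED1 (chromosome 15, 38252836 to 38357249, plus strand), which brings the RAS inhibitor neurofibromin to the membrane, was the only member with a higher mean in HCQ-evolved OVCAR3, at 122, 196 and 167 CPM in control and 181, 194 and 288 CPM in HCQ-evolved pools (log2 fold change 0.47), and it overlapped in CCL218 too (95.9 to 156 and 153 to 179 CPM, 0.28). SPRED2 (chromosome 2, 65310851 to 65432637, minus strand) varied more among OVCAR3 pools than between groups, from 73.1 to 143 CPM in control and from 55.2 to 127 CPM in HCQ-evolved pools, and its log2 fold changes were -0.31 and -0.12.

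**Figure D2:**
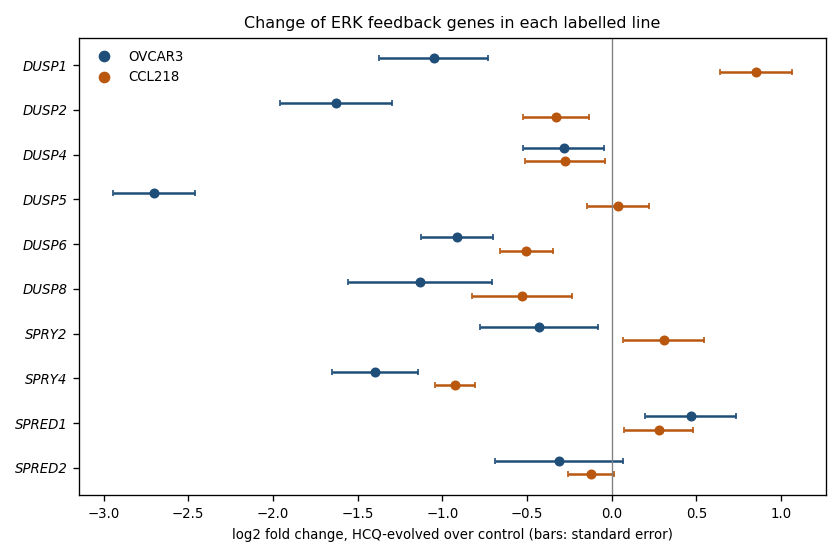
Log2 fold change of each of the 10 genes, HCQ-evolved over control (x axis), with bars for the standard error from edgeR, in OVCAR3 (blue) and CCL218 (orange). DUSP5 (-2.70 and 0.04) lies far apart between lines, DUSP1 lies on opposite sides of 0, and SPRY4 is below 0 in both.

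Over the whole set, 9 of 10 genes had a lower mean and 1 a higher mean in HCQ-evolved OVCAR3, and their median log2 fold change was -0.98, against 0.02 over all 12204 genes tested. All 10 passed the filter of at least 1 CPM in at least 3 libraries. Of them 2 passed the threshold (DUSP5 and SPRY4), where 1.86% of all genes did, and 6 had groups that did not overlap, where 25.7% of all genes did. In CCL218, 6 were lower and 4 higher, the median was -0.20 against -0.02 over 12241 genes, 1 passed (SPRY4; background 6.46%, and 14.2% with plate position as a block, where SPRY4 and DUSP1 passed) and 3 did not overlap (DUSP6 and SPRY4 lower, DUSP1 higher; background 36.0%). Between the lines, 1 of 10 passed (DUSP5) against 0.872% of 12613 genes. As the genes were chosen on these contrasts, nothing is read from these counts.

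**Figure D3:**
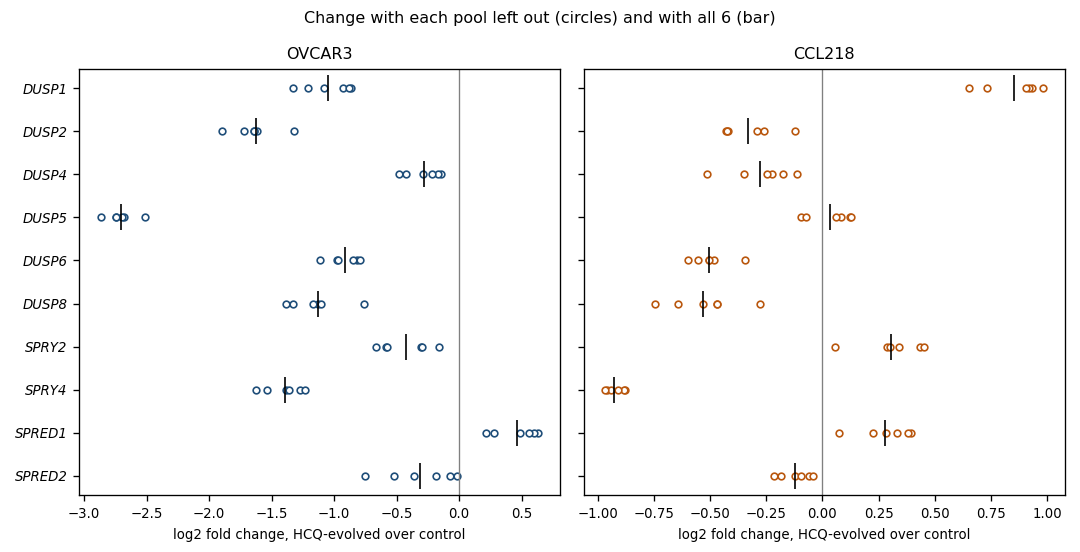
Log2 fold change of the 10 genes with all 6 pools of a line (black bars) and with each pool left out in turn (circles), for OVCAR3 (left) and CCL218 (right). DUSP5 in OVCAR3 stays between -2.87 and -2.51 and SPRY4 in CCL218 between -0.97 and -0.88.

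The level in the controls of the 2 lines is a contrast that the choice did not use, although the same control libraries entered it. DUSP5 and SPRY4, for which the set was proposed, are described without a test. The log2 difference, CCL218 minus OVCAR3 control pools, was -2.21 (SE 0.18) for DUSP5 and 0.41 (SE 0.18) for SPRY4, both without overlap. Of the other 8 members, 0 passed edgeR's quasi-likelihood test after Benjamini-Hochberg adjustment. DUSP1, DUSP2 and DUSP8 had an unadjusted p under 0.05, as did 1512 of 12324 genes. DESeq2 passed 1 of the 8, DUSP8, where it called 313 genes higher and 421 lower in CCL218. The background of the edgeR test was 2.05% of 12324 genes, and 17.6% of genes had control groups without overlap. DUSP2 and DUSP8 had no overlap, with log2 differences, CCL218 minus OVCAR3, of -0.63 (adjusted p = 0.236) and -0.99 (adjusted p = 0.182). DUSP1 was at -0.87 (adjusted p = 0.328), and DUSP4, DUSP6, SPRY2, SPRED1 and SPRED2 were between -0.25 and 0.38.

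The control pools of the same plate position deviated together in the 2 lines, so the controls were also compared with position as a block. Then DUSP1 (-0.84, adjusted p = 2.76e-05), DUSP2 (-0.65, adjusted p = 0.00116) and DUSP8 (-1.03, adjusted p = 0.00449) were lower and SPRY2 (0.37, adjusted p = 0.0132) was higher in CCL218, while DUSP4, DUSP6, SPRED1 and SPRED2 did not pass. The SPRY4 and DUSP5 differences, again as a description, were 0.43 and -2.22 and past the threshold. The background in this paired fit was 36.0% of genes, so that 6 of 10 members past it stand against a high share. DUSP1 and SPRY2 passed in the block fit only, and the DUSP2 difference ranged from -0.65 to -0.30 over the settings other than omissions. Control pools of OVCAR3 and CCL218 had like length trends in L (rho -0.35 and -0.49) and M (0.52 and 0.46), but not in R (-0.40 and 0.03). The part of these trends in the block fit was not tested. Leaving out CCL218 control L from the unpaired fit brought DUSP2 and DUSP8 past the threshold, where 161 genes were called higher and 310 lower, of 12192.

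Other genes of the pathway came from 4 lists, in which 57 of 64 genes were tested in each line. None of these genes belongs to the 10. The lists were drawn up with earlier results of these data known, so their counts, medians and p-values are a description and no independent support. In OVCAR3, 17 of the 57 had an unadjusted p under 0.05, as did 1983 of 12204 genes. At an adjusted p under 0.05, 3 fell and 0 rose, where 1.86% of all genes passed. All 3 were among ERK-responsive transcripts. HBEGF, a ligand of the EGF receptor, fell from 54.7, 53.7 and 59.4 CPM to 4.02, 3.71 and 3.47 CPM (log2 fold change -3.89, SE 0.19, adjusted p = 0.000646, edgeR). FOSL1, a subunit of AP-1, fell from 123, 76.1 and 52.6 CPM to 24.6, 22.1 and 20.7 CPM (-1.88, SE 0.31, adjusted p = 0.0330), and CCND1, the cyclin that carries cells through G1, fell from 180.1, 208 and 151 CPM to 90.0, 88.1 and 73.3 CPM (-1.08, SE 0.19, adjusted p = 0.0380). HBEGF passed with any of the 6 pools left out, whereas FOSL1 and CCND1 passed only without HCQ-evolved R. Over all genes, 233 were called higher and 324 lower without HCQ-evolved R, and at most 9 and 40 in the other omissions. Over the 16 ERK-responsive transcripts tested, 12 had a lower mean and 10 were lower and 1 higher without overlap, where 25.7% of all genes had no overlap in either direction, and the median was -0.72 against 0.02 for all genes.

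In CCL218, 20 listed genes had an unadjusted p under 0.05, as did 3084 of 12241 genes. At the adjusted threshold 2 listed genes fell and 0 rose, where 6.46% of all genes passed. These were DUSP14, a small phosphatase of the MAP kinase family (5.32, 5.23 and 5.42 CPM to 3.0, 2.52 and 3.21 CPM, log2 fold change -0.87, SE 0.17, adjusted p = 0.0315, edgeR), and MAP2K6, the kinase that activates p38 (16.1, 24.3 and 20.1 CPM to 7.89, 11 and 10.6 CPM, -1.04, SE 0.20, adjusted p = 0.0318). Both passed only without control L when single pools were left out. Over all genes, 1646 were called higher and 1401 lower without control L, and at most 296 and 147 in the other omissions. With plate position as a block, 9 of 57 listed genes passed, where 14.2% of all genes did, 6 of them higher (FOS, PLAUR, SPRY1, MAPK11, MAPK14 and RASA2) and 3 lower (DUSP14, MAP2K6 and FOSL1 at -1.16, adjusted p = 0.0192). FOSL1 was at 78.9 CPM in CCL218 control L and at 29.2 and 28.0 CPM in the other control pools, and its change without a block was -1.32 with all pools and -0.66 without control L. The ERK-responsive transcripts had a median of -0.01 in CCL218, with 7 higher and 9 lower.

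**Figure D4:**
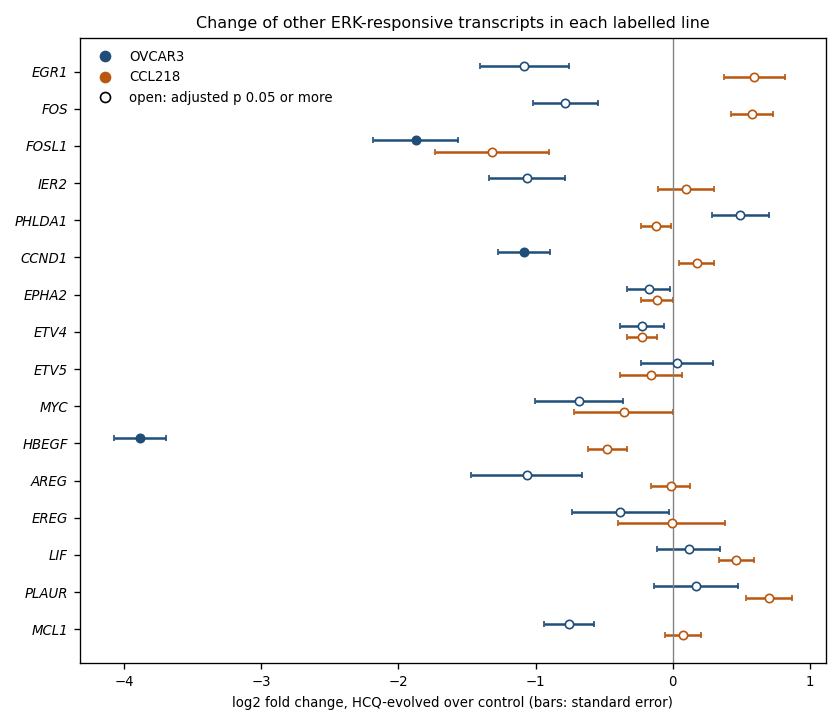
Log2 fold change of the 16 ERK-responsive transcripts tested, HCQ-evolved over control (x axis), with bars for the standard error and filled points for an adjusted p under 0.05, in OVCAR3 (blue) and CCL218 (orange). HBEGF, FOSL1 and CCND1 are filled in OVCAR3, and EGR1 and FOS are among the transcripts with changes on opposite sides of 0.

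In the interaction test of edgeR over all 12 libraries, 3 of the 57 listed genes passed, all of them ERK-responsive transcripts. As these genes were listed with earlier results of these data known, their p-values are a description and no independent support. Of all 12613 genes, 0.872% passed this test. HBEGF differed by 3.43 (SE 0.19, adjusted p = 1.09e-05), CCND1 by 1.28 (SE 0.21, adjusted p = 0.0178) and FOS, an immediate early subunit of AP-1, by 1.38 (SE 0.28, adjusted p = 0.049998, just under the threshold). HBEGF passed with any of the 12 libraries left out, CCND1 in 8 and FOS in 2 of these 12 omissions. FOS was at 1135, 1284 and 1345 CPM in OVCAR3 control, 828, 827 and 516 CPM in OVCAR3 HCQ-evolved, 1033, 847 and 852 CPM in CCL218 control and 1555, 1308 and 1235 CPM in CCL218 HCQ-evolved pools. HBEGF was also lower in CCL218 than in OVCAR3 controls (log2 difference -2.15, adjusted p = 0.00305), as DUSP5 was in mean.

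The kinases and adaptors that carry the signal to ERK showed 0 calls in either line among 23 tested. In each line 3 had an unadjusted p under 0.05, as did 1983 of 12204 genes in OVCAR3 and 3084 of 12241 in CCL218. DESeq2 called 1 and 2 of the 23. Over all genes it called 542 higher and 563 lower in OVCAR3, and 1104 and 1068 in CCL218. The medians of the 23 were 0.20 in OVCAR3 (20 higher, 3 lower) and 0.23 in CCL218 (21 higher, 2 lower). Single libraries moved these values. In OVCAR3 the median was 0.0033 with 13 of 23 higher without HCQ-evolved R, 0.13 without control L, 0.32 and 0.34 without HCQ-evolved M and L, and 0.40 without control M. In CCL218 the median was 0.37 without control M, and 0.085 with 16 of 23 higher and 4 calls without control L. Without control L, 1646 genes were called higher and 1401 lower, of 12102. The medians were 0.14 and 0.16 once each library's dependence on transcript length and GC content had been taken out. In the list of other phosphatases and Sprouty genes, 8 of 10 were tested, with medians of -0.02 and -0.11 and 1 call (DUSP14). The JNK and p38 list had 10 tested, medians of 0.27 and 0.23 and 1 call (MAP2K6). Its OVCAR3 median was 0.13 without HCQ-evolved R, 0.17 without control L and 0.14 with no filter, and its CCL218 median was 0.11 with the length and GC dependence taken out.

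The genes whose log2 CPM followed DUSP5 most closely over the 12 libraries were NR4A1 (Pearson's r = 0.97), CNN3 (0.96) and FOSB (0.95). Their means in OVCAR3 control, OVCAR3 HCQ-evolved, CCL218 control and CCL218 HCQ-evolved pools were 254, 39.9, 52.7 and 61.7 CPM for NR4A1, 3.87, 0.322, 0.804 and 0.550 CPM for CNN3, and 788, 117, 241 and 211 CPM for FOSB. Those nearest to SPRY4 were STXBP4 (0.98), FOXA1 (0.98) and MEX3A (0.98), and FOXA1 was at 157, 93.4, 189.8 and 129 CPM. Within the set, DUSP5 followed DUSP2 (0.84) and DUSP8 (0.83), SPRY4 followed DUSP6 (0.79), and SPRED1 ran against DUSP2 (-0.71). All of these correlations share the same 12 libraries, their group means and their length trends, and were drawn from all genes tested, so they are a description only.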

How the data were processed

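The members and gene lists were chosen with earlier results of these data known. The authors aligned reads to hg38 with STAR, removed duplicates with RmDup and deposited raw counts per gene from featureCounts. Versions, annotation and strand setting were not given in the sources used here. Of entries of 1 to 4 counts, 78.9% were even, so counts may hold both reads of a pair, which would make them less precise than their size. Counting error is only part of the spread between pools.

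Libraries were TMM-scaled. Genes that reached 1 CPM in 3 or more libraries of a fit were tested by edgeR 4.0.16 (R 4.3.3, robust quasi-likelihood F test), each line alone, at a Benjamini-Hochberg adjusted threshold of 0.05. All 12 libraries entered the interaction, and the controls of both lines were fitted together. The steps were tested on simulated data. Printed CPM use factors over all 12 libraries.

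Pools of the same plate position deviated together in CCL218 (correlations 0.506, 0.233 and 0.195 for L, M and R) and between controls of both lines (0.846, 0.804 and 0.237), so fits with position as a block were run. In OVCAR3 (0.401, -0.665 and -0.478) position did not pair pools. Named are all members, every listed gene that passed in either line, genes named beside a count or a list's members, chosen after their values were seen, and the 3 genes closest to DUSP5 and SPRY4. Alternatives were DESeq2 1.42.0, RLE size factors, no filter, removal of a length and GC trend, and each pool left out. Positions are from GENCODE 44 (25763 of 28278 symbols matched). Exome and screen data were not analysed here.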

Additional observations from a re-analysis of the deposited data

Results flagged for a closer look

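The change with HCQ evolution differed between OVCAR3 and CCL218 by the interaction term of edgeR for 4 of the genes described. Of all 12613 genes, 0.872% passed. The differences of log2 change, CCL218 minus OVCAR3, were 2.76 for DUSP5, 3.43 for HBEGF, 1.28 for CCND1 and 1.38 for FOS. DUSP5 was chosen for a change in one line, so its value is a description. HBEGF, CCND1 and FOS were listed with earlier results of these data known, so their calls are no independent support. HBEGF passed with any of the 12 libraries left out (3.37 to 3.51). CCND1 passed in 8 of 12 omissions and was lost without CCL218 control R or any CCL218 HCQ-evolved pool (adjusted p up to 0.0690 over the 12). Over all genes, 87 were called higher and 23 lower with all 12 libraries, and at most 54 and 13 where CCND1 was lost. FOS passed only without OVCAR3 HCQ-evolved R or CCL218 control L (adjusted p of 0.0233 to 0.162 over the 12).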

How the results depend on the processing

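Of the 10 members, 2 passed in OVCAR3, and 5 with DESeq2 or with all 12 libraries in one fit, 4 with the length and GC trend removed, 1 with plate position as a block and 0 to 4 with a pool left out (0 without control L or control R, 4 without HCQ-evolved R). In CCL218 1 passed, and 3 with DESeq2, 2 with no filter, 2 with the trend removed, 2 with the block and 0 to 4 with a pool left out (4 without control L, 0 without HCQ-evolved L, M or R). For the difference between lines 1 passed (DUSP5), and 2 with DESeq2, 2 with no filter, 3 with the trend removed and 1 to 2 with a pool left out (2 without OVCAR3 control L). Between controls 1 passed, and 2 with DESeq2, 6 with the block and 1 to 3 with a pool left out (3 without CCL218 control L). Of the listed pathway genes 3 passed in OVCAR3, and 12 with DESeq2 or with all 12 libraries in one fit, 10 with the trend removed, 1 with the block (HBEGF) and 1 to 5 with a pool left out (5 without HCQ-evolved R, 1 otherwise). In CCL218 2 passed, and 14 with DESeq2, 4 with no filter, 15 with the trend removed, 9 with the block and 0 to 19 with a pool left out (19 without control L, 0 otherwise). RLE size factors kept every count within 1.5 times. Calls over all genes also moved between settings, so these counts are not read as behaviour of the members or lists. In OVCAR3, genes called higher and lower went from 79 and 148 to 542 and 563 with DESeq2. They were 558 and 607 with all 12 libraries in one fit, 613 and 453 with the trend removed and 233 and 324 without HCQ-evolved R. They fell to 0 and 3 without control L, 3 and 16 without control M and 1 and 3 without control R. Without HCQ-evolved L or M they were 9 and 40 or 3 and 22. In CCL218 they went from 468 and 323 to 1104 and 1068 with DESeq2, 1170 and 1166 with the trend removed and 1646 and 1401 without control L. Without HCQ-evolved L, M or R they were 108 and 39, 72 and 30, or 108 and 35. They were 296 and 147 without control M and 112 and 33 without control R. The cause of these moves was not tested.

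The L, M and R numbers did not pair pools in OVCAR3, where the block took the calls of SPRY4, FOSL1 and CCND1, and it took those of FOS and CCND1 from the difference between lines. Over all genes, the block took calls higher and lower from 79 and 148 to 17 and 64 in OVCAR3. For the difference between lines they went from 87 and 23 to 34 and 1. No named gene that passed changed direction in any setting. DUSP5's change in OVCAR3 was between -2.87 and -2.51 over all settings tried. Each group was 3 pools of one plate, and DUSP8 had as few as 40 counts in a library.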
